A study of Mus musculus with 6 samples.

Results

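The mitochondrial ribosomal protein genes are the nuclear genes named MRPL (large subunit) or MRPS (small subunit) followed by a number. Members were taken by symbol, with the requirement that the expected counts of a gene, the fragments that RSEM assigned to it, sum to at least 60 over the 6 samples. The symbol was matched by 78 of the 58870 genes listed, and all 78 passed the requirement. The lowest sums were far above it, at 8315 counts for MRPL1 and 9180 for MRPL53, so no gene lay near the limit. The members have 499 annotated isoforms among 208621 in all.

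RNA was sequenced from 77-5 cells, a single clone of the human T-REx-293 line (HEK293 cells with a tetracycline repressor). In both groups the clone carries a Rbfox1 gene under doxycycline control and a stably inserted minigene made from a mouse Ntrk2 bacterial artificial chromosome. The Dox group (n = 3) received doxycycline for 48 h and expressed Rbfox1, an RNA-binding protein that regulates splicing, and the No Dox group (n = 3) was left untreated. The labels give the dose as 0.5 mg/ml, and elsewhere in the study its unit is µg/ml. The effect of doxycycline and that of Rbfox1 cannot be told apart in these groups, and a single clone stands for the line. Nothing in the labels says that the 3 samples of a group came from separate cultures, so p-values measure the spread between these samples, which may be technical. In bulk RNA, fewer expressing cells and less RNA per cell cannot be told apart either.

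Mitochondria keep their own ribosome, which translates only the few mRNAs of the mitochondrial genome, all of them for subunits of the respiratory chain and ATP synthase. Its 2 rRNAs are transcribed inside the organelle, whereas every protein is encoded in the nucleus, made in the cytosol and imported. Some of these proteins descend from the bacterial ribosome, including those at the decoding centre, the peptidyl transferase centre and the factor-binding stalk, and others exist only in mitochondria. A cell therefore has to make many subunits of 1 particle from genes scattered over its chromosomes.

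Libraries held 59823000 to 65774100 expected counts. RBFOX1 had 188.3 ± 1.77 TPM (an abundance adjusted for isoform length and library size) in Dox and 7.53 ± 0.79 TPM in No Dox samples (SD, n = 3 each). Mitochondrially encoded genes took 3.61 to 3.71% of counts in Dox and 3.25 to 3.34% in No Dox samples, and the part of this difference in the results was not tested. Of 4 HEK293 markers (NEFL, NEFM, LIN28B and PAX2), 3 averaged above 1 TPM, and the TPM of all 4 summed to 92.7 to 94.3 in Dox and 109.6 to 111.7 in No Dox samples. They went both ways: by edgeR, NEFL and LIN28B fell (log2 fold changes -0.23 and -0.20), NEFM rose at a low level (1.04, with 1.15 TPM in Dox and 0.55 TPM in No Dox samples) and PAX2 did not pass. Of 5 markers of other cells, the leukocyte, endothelial and hepatocyte genes PTPRC, PECAM1 and ALB reached at most 0.50 TPM in any sample. Without the epithelial gene EPCAM, which was at 82.4 to 95.7 TPM, this second list summed to 4.75 to 5.08 TPM in Dox and 3.96 to 5.10 TPM in No Dox samples.

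Most mitochondrial ribosomal protein genes were lower in Dox samples, by less than 1.5-fold in all but MRPL23. Of the 78 members, 56 fell and 5 rose by edgeR's quasi-likelihood test at an adjusted p under 0.05, and 17 did not pass. The members that fell are 71.8% of the total, beside 26.5% lower among all 18264 genes tested, and those that rose are 6.41%, beside 24.9% higher. Members are strongly expressed, which makes small changes easier to call: among the 5479 genes at or above the lower quartile of the members (43.4 CPM, counts scaled to library size), 44% were lower and 24.3% higher. The median log2 fold change was -0.16 for members (a change of -10.5%) and 0.00 for all genes tested. DESeq2 called 57 members lower and 5 higher, beside 41.5% of the 19168 genes it tested (22.9% lower and 18.6% higher). Scaled to library size alone, without TMM factors, 46 members fell and 8 rose in edgeR, beside 51.7% of all genes (20.5% lower and 31.1% higher).

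Apart from MRPL23, the decreases were narrow in size. Among the 56 members that fell, the change ran from -56.3% in MRPL23 and -24.1% in MRPL36 to -4.93% in the smallest, with a median of -13.5% and quartiles of -17.0% and -10.1%. A fitted fall of more than 1.2-fold was found in 16 members and one of more than 1.5-fold only in MRPL23, whereas 2.93% of all genes tested fell by over 1.5-fold. The share of all genes past 1.2-fold was not taken, so the 16 are a description. The lower quartile of the log2 fold change was -0.24 in members and -0.16 in all genes tested. Without a test, 68 of the 78 fitted values were below 0, where all genes tested had a median of 0.00. The share of all genes below 0 was not taken. The TPM of every Dox sample was below that of every No Dox sample in 48 members, beside 22.2% of all genes tested. In 6 members all Dox samples were above all No Dox samples, beside 28.1% of genes, and in 24 the groups overlapped. Medians, quartiles and shares without overlap were not taken among strongly expressed genes, of which 44% were lower and 24.3% higher by edgeR. These values are therefore descriptions.

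**Figure D1:**
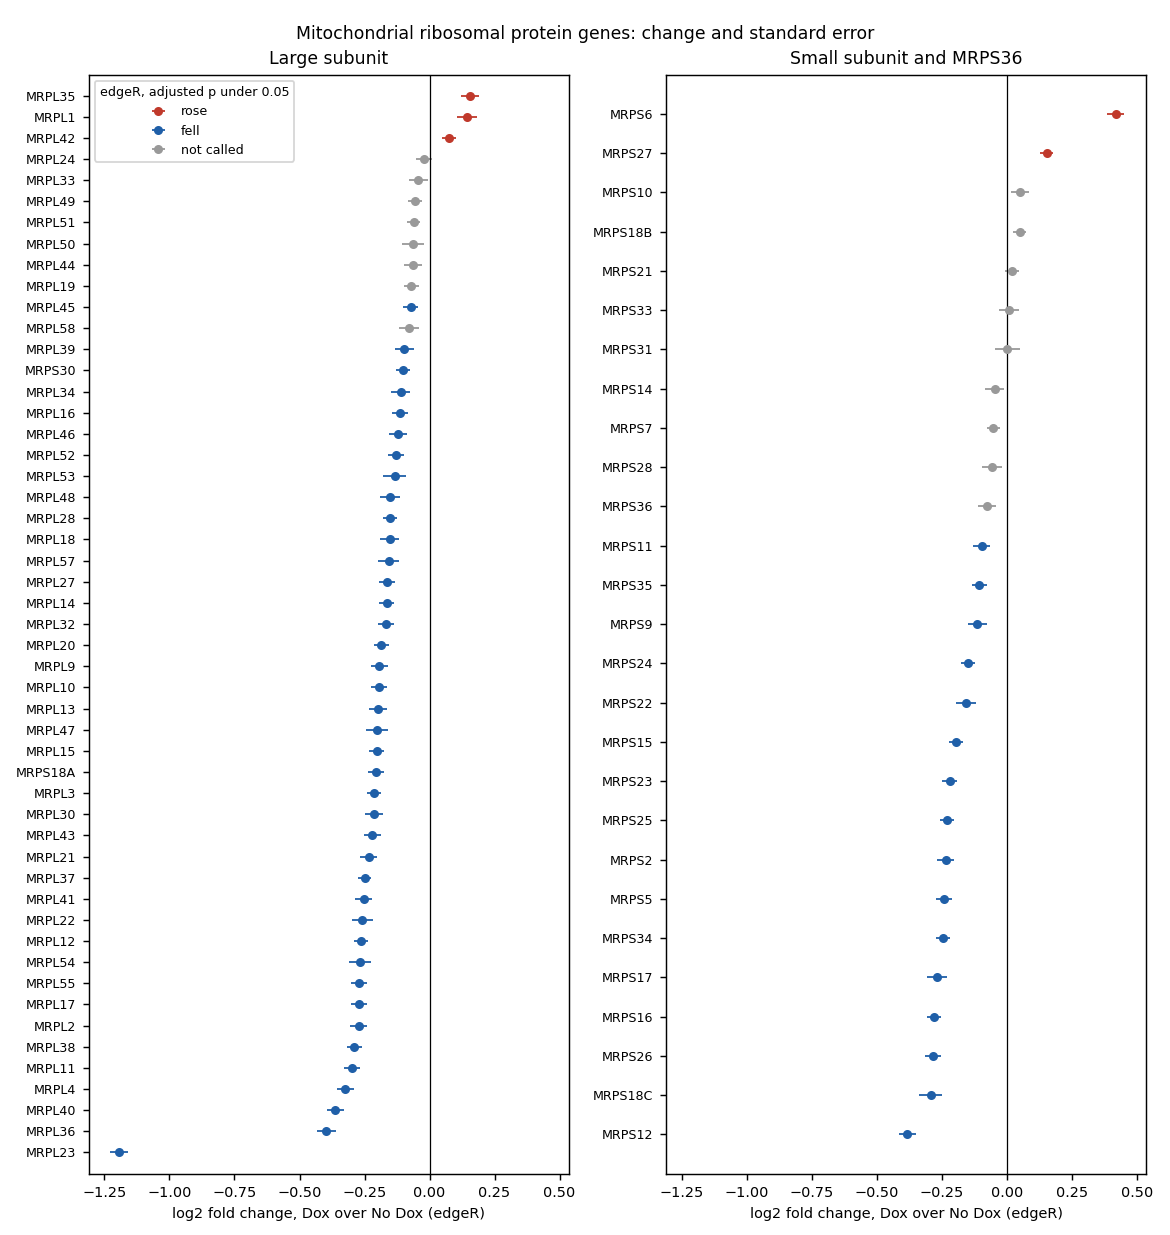
Log2 fold change of each mitochondrial ribosomal protein gene, Dox over No Dox (x axis), with its standard error from edgeR (n = 3 each), for the large subunit on the left and for the small subunit with MRPS36 on the right. Blue points fell, red points rose and grey points did not pass an adjusted p of 0.05. MRPL23 stands at -1.19, away from the other members, and MRPS6 at 0.42 is the highest.

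Added over all members, the mRNA for the ribosome's proteins came to 9064 ± 21.5 TPM in Dox and 9944 ± 23.3 TPM in No Dox samples (SD, n = 3 each). As a share of expected counts it was 0.573 ± 0.004% in Dox and 0.617 ± 0.002% in No Dox samples. Both subunits contributed. The large-subunit sum was 5955 ± 7.90 TPM in Dox and 6609 ± 20.4 TPM in No Dox samples, and the small-subunit sum was 3061 ± 8.81 TPM in Dox and 3283 ± 14.5 TPM in No Dox samples. The ratio of the large to the small sum averaged 1.95 in Dox and 2.01 in No Dox samples, with no overlap between the groups. Single genes weigh on it: MRPL23 averaged 88.2 TPM in Dox and 172.3 TPM in No Dox samples. MRPS6, in the small sum, averaged 126.3 TPM in Dox and 91.5 TPM in No Dox samples. Both genes lower the ratio in Dox samples, and a ratio without them was not taken.

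Of 51 members of the large subunit, which holds the peptidyl transferase centre, 40 fell (78.4%) and 3 rose (5.88%), with a median log2 fold change of -0.17. Of 26 members of the small subunit, which binds the mRNA and reads its codons, 16 fell (61.5%) and 2 rose (7.69%), with a median of -0.13. By ancestry, 36 of 48 proteins with a bacterial counterpart fell (75%) and 3 rose (6.25%), with a median of -0.19. Of 28 that exist only in mitochondria, 20 fell (71.4%) and 2 rose (7.14%), with a median of -0.13. Among all genes tested 26.5% were lower and 24.9% higher, and among strongly expressed ones 44% were lower. These shares and medians are descriptions, and no difference between subunits or ancestries was tested. MRPL58, a release-factor relative built into the large subunit, had a log2 fold change of -0.08 and did not pass. MRPS36, which carries the family name but is now known as a part of the 2-oxoglutarate dehydrogenase complex, also stood at -0.08 without passing.

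The members named for the size of their change, their level or their isoforms include proteins of the sites where tRNA, mRNA and translation factors bind. Among these, MRPS12, MRPL11, MRPL12 and MRPL2 fell while MRPL1 rose. Members named for the size of their change were taken only from called members whose groups do not overlap. Their separation is thus no further result. MRPS12, the counterpart of the bacterial S12 that checks codon reading, had 155.5, 153.5 and 147.2 TPM in Dox samples, against 187.2, 204.7 and 190.3 TPM in No Dox samples. Every Dox value lay below every No Dox value, and the log2 fold change was -0.38 (SE 0.03, adjusted p = 5.9e-08 by edgeR). MRPL11, at the base of the stalk that recruits factors, had 76.8, 73.7 and 76.2 TPM in Dox samples, against 90.8, 87.4 and 91.4 TPM in No Dox samples. Its log2 fold change was -0.30 (SE 0.03, adjusted p = 1.0e-06 by edgeR). MRPL12, which forms the stalk itself, had 287.1, 286.7 and 273.4 TPM in Dox samples, against 333.1, 322.0 and 334.3 TPM in No Dox samples, and its log2 fold change was -0.26 (SE 0.03). For both stalk proteins the groups did not overlap. MRPL2, next to the peptidyl transferase centre, fell by 0.27 on the log2 scale to 108.8 ± 1.32 TPM in Dox, against 130.2 ± 5.85 TPM in No Dox samples (SD, n = 3 each).

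The largest change of any member was in MRPL23, a large-subunit protein at the rim of the tunnel through which the new peptide leaves. MRPL23 had 85.1, 92.6 and 86.8 TPM in Dox samples, against 169.8, 174.8 and 172.2 TPM in No Dox samples. The lowest No Dox sample was well above the highest Dox sample, and the log2 fold change was -1.19 (SE 0.03, adjusted p = 2.0e-13 by edgeR). MRPL4, whose protein lines the wall of the same tunnel, changed far less. It had 107.3, 110.8 and 104.6 TPM in Dox samples, against 131.1, 134.1 and 126.4 TPM in No Dox samples, a log2 fold change of -0.32 (SE 0.03, adjusted p = 3.2e-07 by edgeR).

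The remaining members with the largest falls belong to other regions of the particle. MRPL36, a very small protein with a bacterial counterpart, had 148.0, 143.1 and 156.1 TPM in Dox samples, against 193.0, 187.0 and 190.7 TPM in No Dox samples (log2 fold change -0.40, SE 0.04). MRPL40, found only in mitochondrial ribosomes, had 74.9, 75.4 and 74.1 TPM in Dox samples, against 96.5, 91.3 and 92.0 TPM in No Dox samples (log2 fold change -0.36, SE 0.03). MRPL38, of the central protuberance, had 124.2, 119.2 and 114.6 TPM in Dox samples, against 146.4, 146.7 and 139.0 TPM in No Dox samples (log2 fold change -0.29, SE 0.03). These genes too were taken only from members whose groups do not overlap.

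The paralogs that descend from the bacterial S18 protein did not share a call. MRPS18C, in the small subunit, had 54.7, 52.3 and 61.3 TPM in Dox samples, against 70.1, 76.9 and 73.3 TPM in No Dox samples (log2 fold change -0.29, SE 0.04). MRPS18A, which sits in the large subunit despite its name, fell by 0.21 on the log2 scale to 99.5 ± 0.53 TPM in Dox, against 110.5 ± 1.88 TPM in No Dox samples. MRPS18B did not pass, at 159.9 ± 0.51 TPM in Dox and 150.2 ± 1.86 TPM in No Dox samples (log2 fold change 0.05, adjusted p = 0.11 by edgeR). MRPS30, the other member of the large subunit named as a small-subunit gene, fell by 0.10.

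Few members were higher in Dox samples. MRPS6, a small-subunit protein with a bacterial counterpart, had 120.8, 128.4 and 129.9 TPM in Dox samples, against 92.3, 91.3 and 91.0 TPM in No Dox samples. All Dox values were above all No Dox values, and the log2 fold change was 0.42 (SE 0.03, adjusted p = 4.8e-08 by edgeR). It was the only member to rise by more than 1.2-fold, and none rose by more than 1.5-fold, beside 6.07% of all genes tested. SLC5A3, a transporter gene whose annotation overlaps the MRPS6 locus and which was looked up after these values were seen, had 14.9, 14.4 and 15.6 TPM in Dox samples, against 15.6, 15.9 and 16.0 TPM in No Dox samples, a log2 fold change of -0.11 (adjusted p = 0.0044 by edgeR).

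The other rises were small. MRPS27, a pentatricopeptide repeat protein of the small subunit, had 96.8, 105.1 and 98.7 TPM in Dox samples, against 86.4, 88.1 and 86.5 TPM in No Dox samples (log2 fold change 0.15, SE 0.03). MRPL1, of the stalk through which spent tRNA leaves, had 34.6, 35.2 and 34.3 TPM in Dox samples, against 30.3, 29.9 and 31.2 TPM in No Dox samples (log2 fold change 0.14, SE 0.04). Both genes were taken only from members whose groups do not overlap. MRPL42, specific to mitochondria, had 175.0 ± 1.23 TPM in Dox and 159.0 ± 1.91 TPM in No Dox samples, but its log2 fold change of 0.07 (adjusted p = 0.030 by edgeR) lost the call when any of the 3 No Dox samples or Dox replicate 3 was left out (adjusted p of 0.062 to 0.14). The fifth gene called higher, MRPL35, depended on the unit and is described with its isoforms.

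**Figure D2:**
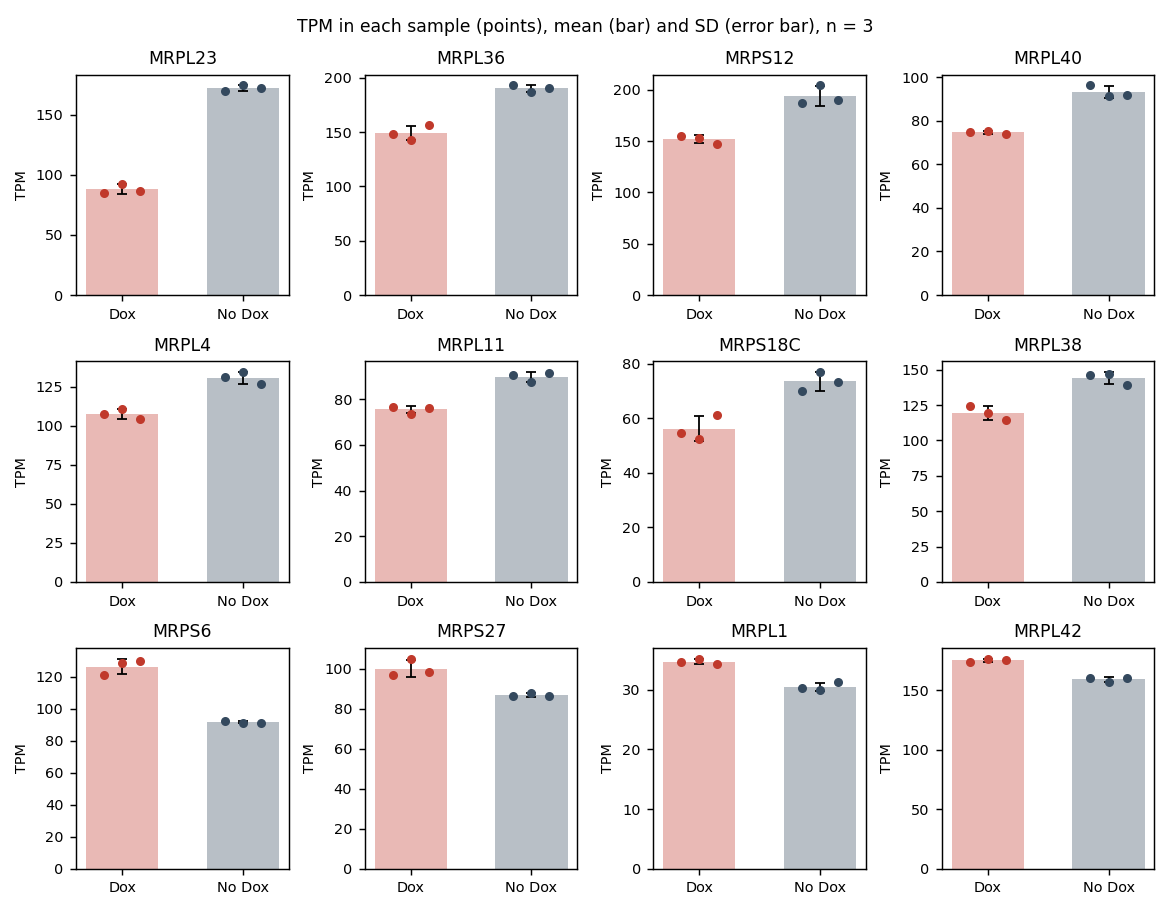
TPM (y axis, from 0) in each sample of the 8 members with the largest falls and the 4 with the largest rises whose groups did not overlap, Dox left and No Dox right. Points are samples, bars are means and error bars are SD (n = 3 each). MRPL23 averaged 88.2 TPM in Dox and 172.3 TPM in No Dox samples, and MRPS6 averaged 126.3 TPM in Dox and 91.5 TPM in No Dox samples.

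Subunits of a particle that holds 1 copy of most proteins had very different mRNA levels, and the calls were spread over the range. Mean TPM ran from 14.2 to 350.8 in Dox samples, with a median of 102.5, and from 14.5 to 392.1 in No Dox samples, with a median of 112.3. The most abundant were MRPL20 (350.8 ± 8.74 TPM in Dox, 389.0 ± 6.59 TPM in No Dox) and MRPS34 (340.9 ± 8.85 TPM in Dox, 392.1 ± 2.01 TPM in No Dox), which both fell. The order of this pair is not the same in the groups, and within each group their ranges over samples overlapped. MRPL51 followed, with 327.3 ± 4.75 TPM in Dox and 331.6 ± 0.82 TPM in No Dox samples, and did not pass (log2 fold change -0.06, adjusted p = 0.060 by edgeR). MRPL28 and MRPS24 fell, to 268.4 ± 7.90 and 255.8 ± 6.44 TPM in Dox, against 290.0 ± 5.32 and 276.8 ± 1.31 TPM in No Dox samples.

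At the low end, MRPL50 had 14.2 ± 0.46 TPM in Dox and 14.5 ± 0.76 TPM in No Dox samples and did not pass. MRPS17, an rRNA-binding protein of the small subunit, fell by 0.27 on the log2 scale to 20.7 ± 0.40 TPM in Dox, against 25.1 ± 0.46 TPM in No Dox samples. MRPL57 fell by 0.16 to 24.1 ± 0.99 TPM in Dox, against 26.2 ± 1.06 TPM in No Dox samples, with overlapping groups. The 17 members that did not pass had log2 fold changes between -0.08 and 0.05. Pseudogenes hold reads close to some members, which the counting may have divided: those of MRPS31 had 25.6% as many counts as MRPS31 itself and that of MRPL45 had 3.64%, and for the other 11 members with a pseudogene that had counts the figure was at most 0.25%.

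Isoform levels showed the same lean. Of the 499 isoforms, 379 had enough counts to be tested by limma-voom. Of these, 55 fell (14.5%, beside 6.44% of all 72438 isoforms tested) and 6 rose (1.58%, beside 6.19%). No share was taken among strongly expressed isoforms, in which small changes are easier to call. Leaving out any sample other than Dox replicate 3 left 29 to 34 isoforms that fell, and 40 fell without Dox replicate 3. The number that rose was 3 without No Dox replicate 1 or No Dox replicate 3 and 4 to 5 when any other sample was left out. The 6 that rose were MRPS6-201, MRPS27-201, MRPL35-202, MRPS21-202, MRPL37-203 and MRPL43-201, and in the last 4 genes another isoform fell.

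Isoform usage, the share of each isoform within its gene, changed in few members. In 32 members a single isoform made up at least 90% of the gene's transcripts in both groups. These include 8 members with only 1 annotated isoform, and the share among all genes was not taken. Over all members the leading isoform had a median share of 80.4% in Dox and 81.2% in No Dox samples. By limma on the log ratio of an isoform to the rest of its gene, 7 of the 69 members that could be tested changed (10.1%), beside 12.4% of all 12328 genes tested. The number depended on the test, with 19 members by diffSplice, 3 by diffSpliceDGE and 1 with a replicate block. In 4 of them (5.8%, beside 6.29%) a called isoform moved by at least 10 percentage points. These were MRPS21, MRPL35, MRPL33 and MRPL23.

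MRPS21, a small-subunit protein with a bacterial counterpart, had the most stable change. MRPS21-201 made up 31.4, 31.1 and 31.1% of the gene's transcripts in Dox samples, against 46.3, 43.2 and 45.6% in No Dox samples. MRPS21-202, its only other isoform, made up 68.8 ± 0.15% in Dox and 54.9 ± 1.66% in No Dox samples. Between them the groups were separated by far more than their spread (adjusted p = 0.0018 by limma), and MRPS21 was the only member whose usage call held under every alternative test. As levels, MRPS21-201 had 41.4, 41.4 and 40.9 TPM in Dox samples, against 56.5, 54.0 and 56.0 TPM in No Dox samples. MRPS21-202 had 90.5, 91.6 and 90.5 TPM in Dox samples, against 65.5, 71.0 and 66.7 TPM in No Dox samples. The opposite moves left the gene as a whole without a call (log2 fold change 0.02, adjusted p = 0.55 by edgeR).

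MRPL35, a large-subunit protein with a bacterial counterpart, is split between a long and a short annotated isoform. MRPL35-202, of 3723 nucleotides, made up 50.8, 45.0 and 42.5% of transcripts in Dox samples, against 27.9, 28.2 and 29.7% in No Dox samples. MRPL35-203, of 651 nucleotides, made up 44.6, 46.9 and 51.8% in Dox samples, against 63.2, 64.6 and 65.4% in No Dox samples. The groups did not overlap for either isoform, and the usage change passed (adjusted p = 0.0093 by limma). The call was lost with a replicate block (adjusted p = 0.071 by limma) and in diffSpliceDGE (adjusted p = 0.12 by edgeR).

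A long isoform yields more fragments per transcript, and the 2 units of the gene went opposite ways. MRPL35-202 took 85.5 ± 2.03% of the gene's expected counts in Dox and 74.1 ± 1.21% in No Dox samples. MRPL35 had 3404, 3223 and 3657 expected counts in Dox samples, against 2987, 3030 and 2960 in No Dox samples, a log2 fold change of 0.16 (SE 0.04, adjusted p = 0.0016 by edgeR). In TPM, which allows for isoform length, MRPL35 had 36.9, 41.2 and 44.6 in Dox samples, against 48.5, 52.1 and 48.4 in No Dox samples. On log2(TPM + 1) the change was -0.28 (adjusted p = 0.013 by limma). MRPL35 was the only member with opposite calls in the 2 units.

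MRPL33, another large-subunit protein with a bacterial counterpart, exchanged its leading isoform in mean percentage of transcripts, which allows for isoform length. By expected counts MRPL33-201 led in both groups, with 66.3 ± 1.69% in Dox and 56.7 ± 2.09% in No Dox samples. MRPL33-202 made up 40.3, 39.8 and 43.2% in Dox samples, against 49.5, 53.8 and 50.9% in No Dox samples. MRPL33-201 made up 57.8 ± 1.59% in Dox and 47.6 ± 2.12% in No Dox samples (SD, n = 3 each). The groups did not overlap, but the call (adjusted p = 0.027 by limma) was lost when any single sample was left out, at adjusted p of 0.055 to 0.099. It was also lost with a replicate block (adjusted p = 0.12 by limma) and in diffSpliceDGE (adjusted p = 0.97 by edgeR). The gene's summed count did not pass (log2 fold change -0.04).

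In MRPL23 the gene's fall was carried by its main isoforms. MRPL23-205 had 52.3, 48.4 and 47.1 TPM in Dox samples, against 120.9, 112.9 and 116.6 TPM in No Dox samples, and MRPL23-202 had 11.0, 18.4 and 17.4 TPM in Dox samples, against 39.2, 51.4 and 44.6 TPM in No Dox samples. Both fell (log2 fold changes -1.26 and -1.58). The usage call of the gene (adjusted p = 0.0042 by limma, and 0.057 with a replicate block) came from minor isoforms. MRPL23-209, of 232 nucleotides, stood at 15.5, 17.5 and 14.4% in Dox samples, against 0.64, 0.64 and 0.43% in No Dox samples.

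That percentage rests on few fragments. MRPL23-209 was assigned 38.6, 44.1 and 38.0 expected counts in Dox samples, against 3.32, 3.18 and 2.14 in No Dox samples, which is 2.42% of the gene's counts in Dox and 0.08% in No Dox samples. Its effective length, the number of positions a fragment can start from, was only 66.8, so a small count becomes a large share of transcripts. Its own level did not pass (adjusted p = 0.058 by limma-voom). MRPL23-206 was at 4.89 to 5.23% in Dox and 1.68 to 2.10% in No Dox samples.

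The last 3 members with a usage call had small shifts. MRPS17-201 was at 96.9 ± 0.72% in Dox and 92.5 ± 0.77% in No Dox samples, MRPL37-202 at 90.9 ± 0.26% in Dox and 94.3 ± 0.87% in No Dox samples, and MRPL2-201 at 1.77 ± 0.05% in Dox and 5.42 ± 0.76% in No Dox samples (SD, n = 3 each). With a replicate block the calls of all 3 were lost (adjusted p of 0.089 to 0.12 by limma), and those of MRPS17 and MRPL37 also in diffSpliceDGE (adjusted p = 0.81 and 0.066 by edgeR). Leaving out isoforms under 10% removes MRPL2-201 itself, so the adjusted p of 0.37 by limma in that run cannot judge its call. MRPS17 and MRPL37 were not tested in that run. The call of MRPS17 was also lost without No Dox replicate 2 or No Dox replicate 3. That of MRPL37, a large-subunit protein specific to mitochondria, was lost in every such run except the one without No Dox replicate 3.

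**Figure D3:**
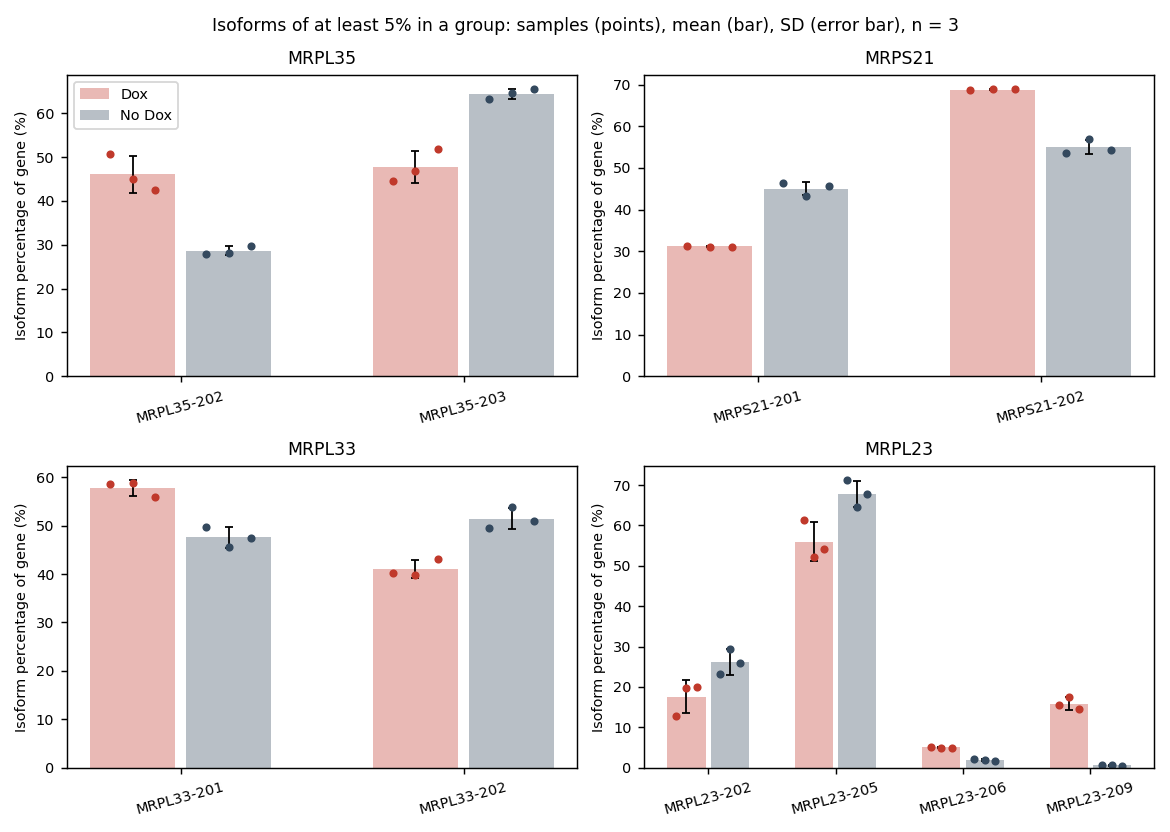
Isoform percentage (y axis, share of the gene's transcripts, from 0) of the isoforms with at least 5% in either group for MRPL35, MRPS21, MRPL33 and MRPL23, Dox left of No Dox for each isoform. Points are samples, bars are means and error bars are SD (n = 3 each). MRPS21-201 averaged 31.2% in Dox and 45.1% in No Dox samples, and MRPL23-209 averaged 15.8% in Dox and 0.57% in No Dox samples.

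Some proteins of the mitochondrial ribosome have symbols outside the MRP pattern. Of 5 such genes, AURKAIP1 (log2 fold change -0.30), GADD45GIP1 (-0.20) and PTCD3 (-0.15) fell, and DAP3 and CHCHD1 did not pass. The 60% that fell stand beside 26.5% lower among all genes tested and 44% among strongly expressed ones. AURKAIP1 had 215.9, 210.1 and 194.6 TPM in Dox samples, against 243.7, 255.3 and 253.9 TPM in No Dox samples. The groups did not overlap.

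Of 28 genes that assemble the mitochondrial ribosome or modify its rRNA, 19 fell (67.9%) and none rose, with a median log2 fold change of -0.16. Among all genes tested 26.5% were lower and 24.9% higher, and among strongly expressed ones (at or above 43.4 CPM) 44% were lower. MRM1 and others of this list lie below that level. MRM1, which methylates the large rRNA, had 10.6, 10.4 and 10.6 TPM in Dox samples, against 15.5, 15.5 and 15.2 TPM in No Dox samples, and had the largest fall of this list (-0.60, adjusted p = 2.9e-08 by edgeR). RCC1L, needed for ribosome assembly, fell by 0.38 on the log2 scale, and the methyltransferase MRM3 and the pseudouridine synthase RPUSD3 by 0.28 each. ERAL1 and NOA1, which are GTPases, and FASTKD2 did not pass (log2 fold changes of -0.06, 0.01 and 0.00).

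Of 16 translation factors and partners of the ribosome, 9 fell (56.2%) and none rose, with a median of -0.12, beside the same 26.5% lower among all genes and 44% among strongly expressed ones. GFM2 and MRRF, which split the ribosome after termination, each fell by 0.38 on the log2 scale. TUFM, the elongation factor that delivers tRNA, had 372.1, 363.6 and 350.9 TPM in Dox samples, against 418.7, 429.4 and 424.7 TPM in No Dox samples (-0.24, adjusted p = 7.7e-07 by edgeR). Its nucleotide exchange factor TSFM did not pass, at 124.8 TPM in Dox and 115.0 TPM in No Dox samples (0.01).

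Of 14 regulators of transcription in the nucleus or inside mitochondria, 9 fell (64.3%) and 1 rose (7.14%), with a median of -0.19. Among all genes 26.5% were lower and 24.9% higher, and among strongly expressed ones 44% were lower. MYC, a transcription factor that drives ribosome and mitochondrial genes, had 60.8, 58.0 and 59.2 TPM in Dox samples, against 124.5, 127.4 and 131.7 TPM in No Dox samples (-1.11, adjusted p = 1.4e-14 by edgeR). The coactivator PPARGC1B fell by 0.59, the mitochondrial RNA polymerase POLRMT by 0.41 and the transcription factor NRF1 by 0.25. The coactivator PPARGC1A was called higher at a low level (0.19, with 2.1 TPM in Dox and 2.0 TPM in No Dox samples). TFAM, GABPA and YY1 did not pass. Whether any of these regulators had a part in the changes of the members was not tested.

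None of the mitochondrial RNAs that the ribosome contains and reads was called lower. The small rRNA MT-RNR1 had 1202, 1218 and 1318 TPM in Dox samples, against 1104, 1124 and 1164 TPM in No Dox samples (log2 fold change 0.10, adjusted p = 0.013 by edgeR). The large rRNA MT-RNR2 had 2860, 3011 and 3152 TPM in Dox samples, against 2416, 2517 and 2564 TPM in No Dox samples (0.23, adjusted p = 8.5e-06 by edgeR). Of the 13 mitochondrial mRNAs, 10 rose (76.9%) and none fell, with a median of 0.16. Among all genes tested 24.9% were higher and 26.5% lower, and among strongly expressed ones 24.3% were higher and 44% lower. The libraries were selected for poly(A), so rRNA levels reflect the molecules that this selection retained.

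**Figure D4:**
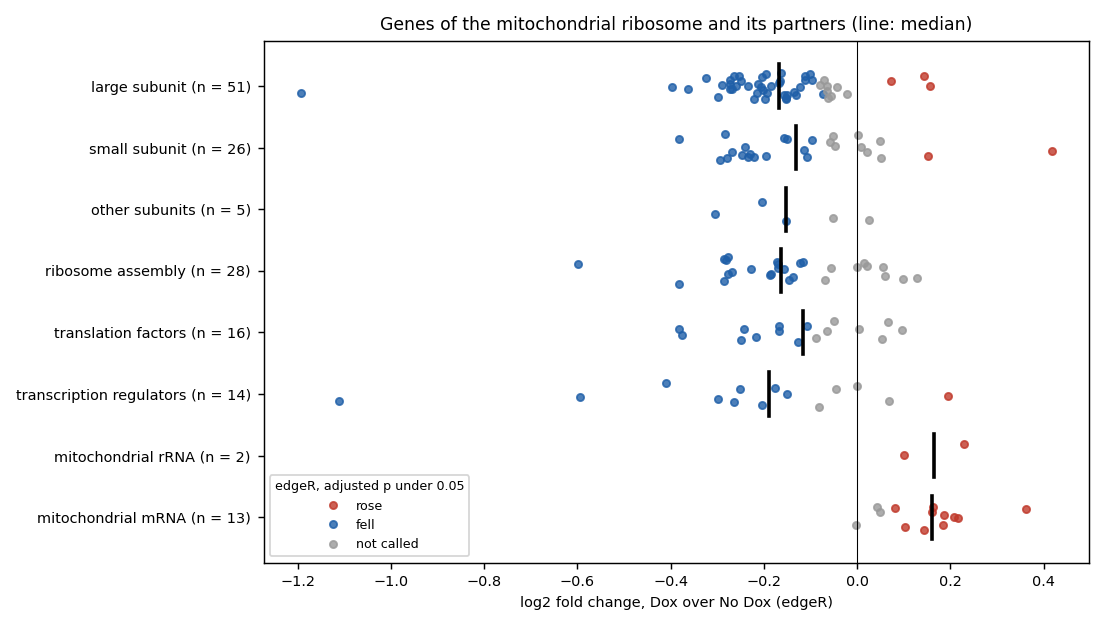
Log2 fold change, Dox over No Dox by edgeR (x axis), of each gene in the 2 subunits and in the lists of other subunits, ribosome assembly, translation factors, transcription regulators, mitochondrial rRNA and mitochondrial mRNA (y axis, number of genes in brackets). Points are genes (blue fell, red rose, grey did not pass) and black lines are medians. The nuclear lists have medians between -0.19 and -0.12 and the mitochondrially encoded lists have medians of 0.17 and 0.16.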

How the data were processed

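Total RNA of 6 samples was made into stranded, poly(A)-selected libraries and sequenced in pairs. The authors trimmed reads with cutadapt, aligned them with STAR to the human build GRCh38 (although the labels name mouse as organism) and quantified isoforms with RSEM (no version is given in the sources used here). The deposited files hold, per isoform, the expected count (not normalized), TPM (scaled by the authors to isoform length and to the same total in each sample) and the isoform percentage of the gene, a percent of its TPM. Sequences of the members were not used here, and 1 marker of the cell line is not reported here.

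Isoform values were summed per gene and expected counts rounded. Gene counts were tested over all genes with edgeR 4.0.16 (quasi-likelihood, TMM, filterByExpr) in R 4.3.3, where the study used DESeq2 for genes. Isoform levels were tested with limma 3.58.1 (voom), and usage with limma on log2 of (isoform count + 0.5) over (rest of gene + 0.5), with Simes p-values per gene. Tests were two-sided, with Benjamini-Hochberg adjustment over all features and a threshold of 0.05. With 3 samples against 3 an exact permutation test of a single gene could not go below 0.10, so none was used. Scripts were tested on simulated data. Totals of 59823000 to 65774100 expected counts per sample and a biological coefficient of variation of 2.87% set the precision. Replicates of a group differed beyond sampling noise (chi-square per degree of freedom of 2.29 to 6.21), so no library was treated as a copy of another. Alternatives included DESeq2 1.42.0, other scalings, filters, log2(TPM + 1) in limma, a minimum fold of 1.2, a replicate block and fits without each sample in turn.

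Named members were the 8 of largest fall and up to 8 of largest rise among those called whose groups do not overlap. Members with a usage call, the 6 of highest and 3 of lowest mean TPM and those nearest the count limit were added. Genes of the companion lists could also be named. A few members (MRPS18A, MRPS18B, MRPS30, MRPS31, MRPS36, MRPL24, MRPL43, MRPL45 and MRPL58) and SLC5A3 fall outside this rule and were named after their values were seen. Members and lists were chosen with earlier results of these data known.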

Additional observations from a re-analysis of the deposited data

How the results depend on the processing

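The count of members that fell was 56 and stayed between 45 and 60 under every alternative except a minimum fold of 1.2 (glmTreat), which left 4 that fell and 1 that rose. DESeq2 called 57 lower and 5 higher, with all 61 calls shared with edgeR in direction. Without TMM, 8 rose and 46 fell. Leaving out a sample gave 4 to 5 members that rose and 52 to 60 that fell, 3 to 5 isoforms that rose and 29 to 40 that fell, and 5 members with changed usage. Usage changed in 7 members, but in 19 by diffSplice, 3 by diffSpliceDGE (MRPL2, MRPL23 and MRPS21) and 4 with a shift of at least 10 points. MRPL35 reversed to -0.28 in limma on log2(TPM + 1), its reads lying mostly on the longer isoform. Whether the replicate numbers pair the samples was not settled. Correlations of same-numbered deviations were weak, at 0.04, 0.03 and 0.06. Those of other numbers ran from -0.04 to -0.002, so each sample correlated best with its own number. With the replicate block 57 members fell and 5 rose, 37 isoforms fell and 5 rose, and usage changed in 1 member, MRPS21. The cause of the other differences was not tested. Depth limits the minor isoforms, such as MRPL23-209, more than the gene sums.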

Other observations

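The cytosolic ribosome, which is built by a separate set of nuclear genes, had about as many genes higher as lower. Of 81 cytosolic ribosomal protein genes tested, 15 rose and 15 fell by edgeR at an adjusted p under 0.05 (18.5% each). Both shares were below those of all genes tested, 24.9% higher and 26.5% lower. Among strongly expressed genes 24.3% were higher and 44% lower. The median log2 fold change of the list was 0.01. Reads of these genes can be divided with their many pseudogenes. The difference between this list and the mitochondrial ribosomal protein genes was not tested.

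In MRPL24 and MRPS18C the leading isoform differed between groups without a usage call. MRPL24-202 led in Dox samples with 47.9% and MRPL24-201 led in No Dox samples with 49.6%. MRPS18C-201 led in Dox samples with 35.5% and MRPS18C-205 led in No Dox samples with 33.8%.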
